A study of Mus musculus with 8 samples.

Results

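Fibroblast growth factors (Fgf) and their receptors were examined in the embryonic lung mesenchyme of the mouse, the connective tissue that surrounds the growing airway. The set comprised the ligands Fgf7, Fgf9, Fgf10 and Fgf18 and the receptors Fgfr1, Fgfr2, Fgfr3 and Fgfr4, chosen by name. Every probe set annotated to 1 of these symbols was taken, where a probe set is a group of short probes that together read 1 transcript. This gave 19 of 45037 probe sets, for 8 of 18193 genes. Of the 19, 15 had a signal over 96.4 on 2 or more arrays, a level that 40% of the table lies under, and entered the tests; the other 4 are described by their signals. Mesenchyme was dissected from CD1 embryos at e11.5 to e12.5 (embryonic days), and the labels name no allele or transgene. The 4 groups, of 2 arrays each, were tip mesenchyme from around the branch ends, stalk mesenchyme cultured for 12 h on tissue culture plastic with 400 ng/ml of the signalling protein Wnt1, stalk mesenchyme cultured for 12 h in control medium, and stalk mesenchyme. Tip and the last of these were extracted directly after dissection and are called uncultured. Separate litters are not recorded for the arrays of a group, so each p-value reflects array-to-array spread, part or all of which may be technical.

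Fgf ligands are secreted proteins that bind receptor tyrosine kinases at the cell surface together with heparan sulfate. An active receptor signals through adaptor proteins and the Ras and MAP kinase pathway, which induces feedback genes such as Spry and Dusp6 and transcription factors of the Etv family. In the lung, Fgf10 and Fgf7 are made by mesenchyme and act on an epithelial splice form of Fgfr2, and loss of Fgf10 stops branching. Fgf9 is made by mesothelium and epithelium and acts on mesenchyme through other splice forms of Fgfr1 and Fgfr2.

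The culture arrays differed from the uncultured ones in more than these genes. The median signal of an array was 86.1 and 99.4 for tip, 149 and 295 for Wnt1 culture, 209 and 298 for control culture, and 76.2 and 95.2 for stalk. The ratio of 3' to 5' signal of Actb, a measure of RNA length, ran from 6.81 to 24.4 in culture and from 2.02 to 4.52 without it. Replicates correlated at r = 0.9628 in tip, 0.8022 in Wnt1 culture, 0.7933 in control culture and 0.9665 in stalk (Pearson, across 37414 probe sets, which are not independent replicates). Because the 2% trimmed mean is about 500 on every array, a probe set can have a higher signal on an array with a higher median without a higher rank. Signals are therefore given with the percentile that the probe set held within its own array, where the result turns on it. Array median and culture cannot be told apart. With 2 arrays in each group, precision is limited throughout. The main test drew 1 spread for each probe set from all 4 groups. Its SE and p-values, also for tip against stalk, therefore mix the wider spread of culture replicates with that of uncultured ones. Of 12 mesenchyme markers, 10 lay above the array's own median on all 8 arrays, against 4 of 14 epithelial markers.

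**Figure D1:**
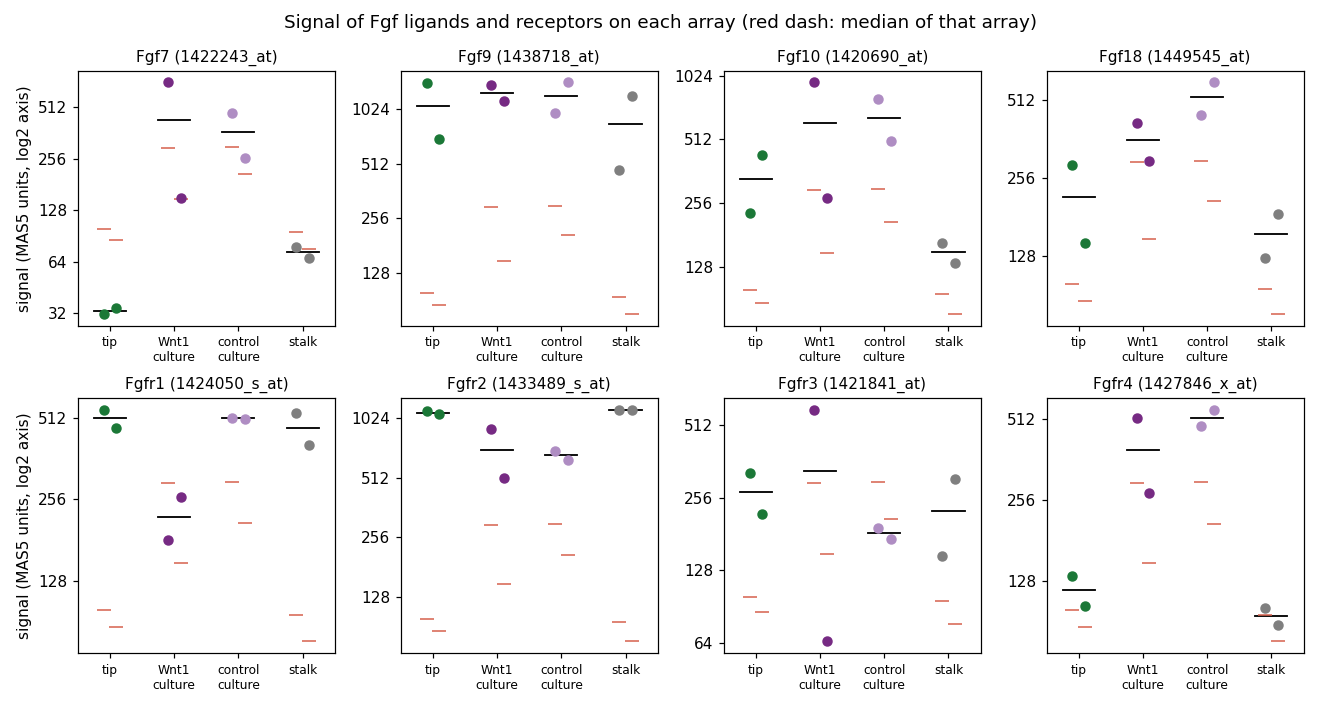
Signal of the brightest probe set of each gene on every array (points; log2 axis in MAS5 units), with the mean of each group (black lines) and the median of each array (red dashes). Fgf10 lay above both stalk arrays on all other arrays, and Fgfr2 was lower on all 4 culture arrays than on the 4 uncultured arrays.

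Among the ligands, Fgf10 separated stalk from the other groups. Its probe set, 1420690_at, had signals of 228 and 433 in tip, 953 and 271 in Wnt1 culture, 796 and 503 in control culture, and 166 and 134 in stalk. Both stalk arrays were lower than the other 6 arrays, and the group means ran, from high to low, control culture, Wnt1 culture, tip and stalk. Control culture overlapped with Wnt1 culture, and Wnt1 culture with tip. Within its array Fgf10 stood at percentile 65.6 and 75.7 in tip, 86.9 and 67.5 in Wnt1 culture, 83.8 and 75.9 in control culture, and 60.9 and 59.5 in stalk. The 2 stalk arrays thus also gave its lowest ranks, while Wnt1 culture and tip overlapped in rank. In bulk tissue, fewer cells that make a transcript and less RNA per cell cannot be told apart.

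Fgf7, like Fgf10 a ligand of the epithelial Fgfr2 form, was dim in uncultured mesenchyme. The probe set 1422243_at had signals of 31.6 and 34.2 in tip, 713 and 150.5 in Wnt1 culture, 469.8 and 259 in control culture, and 78.0 and 67.1 in stalk. Its uncultured values lay below the median of their arrays and its culture values at or above it, at percentile 25.7 and 28.7 in tip, 80.9 and 50.4 in Wnt1 culture, 67.7 and 57.2 in control culture, and 45.6 and 47.6 in stalk. Tip was below stalk without overlap, and the culture groups overlapped with each other. The second Fgf7 probe set, 1438405_at, ranged from 15.8 to 209 and was above the median of its own array on 0 of 8 arrays.

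The promoters of these mesenchymal ligands, the 250 bases before the annotated start, are shown because the brightest probe sets of both genes had higher signals in culture than in stalk, with Wnt1 or in control medium. They were searched on both strands for CTTTGA, the core of the site bound by the Tcf and Lef factors of Wnt signalling, since Wnt1 was added to 1 of the culture groups, and for the GC box GGGCGG. Capitals mark a GC box; sequences are from RefSeq, build GRCm38.p6. The windows lie at chr13:118714449-118714698 (plus strand) for Fgf10 and chr2:126034408-126034657 (plus strand) for Fgf7.
Fgf10: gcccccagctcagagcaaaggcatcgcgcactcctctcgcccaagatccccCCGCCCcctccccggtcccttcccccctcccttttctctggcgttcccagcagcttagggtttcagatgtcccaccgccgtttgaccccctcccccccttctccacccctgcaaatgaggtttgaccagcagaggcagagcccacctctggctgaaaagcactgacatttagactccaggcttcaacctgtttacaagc
Fgf7: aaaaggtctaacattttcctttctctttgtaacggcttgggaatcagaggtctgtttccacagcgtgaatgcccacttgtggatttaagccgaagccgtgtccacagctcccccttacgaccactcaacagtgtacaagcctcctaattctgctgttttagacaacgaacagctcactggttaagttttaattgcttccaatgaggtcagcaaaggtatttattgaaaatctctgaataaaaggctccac
Fgf10 has 1 GC box in this window and Fgf7 has 0. CTTTGA was in 0 of 8 windows of 7 of the genes (Fgfr1 not included), against 13.8% of all 32851 windows of this length. Variant forms of the Tcf/Lef site were not searched, and the Fgf7 window holds the variant CTTTGT, so the count does not cover the site as a whole. The GC box was in 5 of the 8 windows, against 32.7% of all windows. A match describes these letters only.

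Fgf9, the mesothelial and epithelial ligand, varied between the arrays of a group. The probe set 1438718_at had signals of 1423 and 698 in tip, 1388 and 1129.6 in Wnt1 culture, 971 and 1433 in control culture, and 476 and 1209 in stalk. Every neighbouring pair of groups overlapped, and no order of the groups held against the spread. The dimmer probe set 1420795_at had signals of 339 and 279.7 in tip, 519 and 212 in Wnt1 culture, 244 and 112 in control culture, and 163 and 339 in stalk. On both probe sets stalk replicate 2 was well above stalk replicate 1, within the range of tip on 1438718_at and at the level of tip replicate 1 on 1420795_at. Markers of the tissues known to make Fgf9 also varied. The summed signal of 9 mesothelial markers was 8158 and 5026 in tip, 7093 and 5786 in Wnt1 culture, 6181 and 7786 in control culture, and 3853 and 3688 in stalk. That of 14 epithelial markers was 1860 to 3221 on the uncultured arrays and 5987 to 13135 on the culture arrays, none of them listed at 0. The highest sum, on Wnt1 culture replicate 2, included 4384 from Krt8 and 6905 from Krt18, and array medians were higher in culture. The part of these tissues in the Fgf9 signal was not tested.

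Fgf18, a ligand of mesenchymal tissues with a known part in cartilage and lung growth, had 1 probe set, 1449545_at. Its signals were 286 and 144 in tip, 417 and 297 in Wnt1 culture, 448 and 597 in control culture, and 126 and 185 in stalk. The order of the means was control culture, Wnt1 culture, tip and stalk, in which only the neighbours tip and stalk overlapped. By percentile the arrays were closer, at 69.1 and 60.3 in tip, 63.3 and 69.7 in Wnt1 culture, 65.8 and 79.4 in control culture, and 55.7 and 64.0 in stalk, so that all 4 groups overlapped with a neighbour in rank.

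Among the receptors, Fgfr2 had the steadiest signal in uncultured mesenchyme. Its brightest probe set, 1433489_s_at, had signals of 1111 and 1074 in tip, 904 and 513 in Wnt1 culture, 702 and 631 in control culture, and 1132 and 1125 in stalk. All 4 culture arrays were below all 4 uncultured arrays, and the culture groups overlapped with each other. The same held for its rank, which was 86.5 and 86.3 in tip, 86.0 and 79.5 in Wnt1 culture, 80.8 and 80.4 in control culture, and 86.6 and 86.1 in stalk. The other Fgfr2 probe sets had higher means in culture. On 1420847_a_at the signals were 148 and 82.3 in tip, 263 and 182 in Wnt1 culture, 304 and 251 in control culture, and 71.8 and 50.0 in stalk, with every culture array above every uncultured one. By rank this did not hold, at percentile 58.1 and 49.0 in tip, 46.0 and 56.5 in Wnt1 culture, 50.6 and 56.2 in control culture, and 43.7 and 41.7 in stalk. On 1443211_at they were 2.74 and 10.9 in tip, 168 and 7.23 in Wnt1 culture, 545 and 143 in control culture, and 6.88 and 20.5 in stalk. Wnt1 culture replicate 2 lay among the uncultured arrays there. That probe set exceeded the median of its own array on 1 of 8 arrays, control culture replicate 1.

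Fgfr1, the receptor that carries Fgf9 signals in mesenchyme, was low in Wnt1 culture on its brightest probe set. The signals of 1424050_s_at were 551 and 471 in tip, 181 and 261 in Wnt1 culture, 512 and 509 in control culture, and 533 and 408 in stalk. Both Wnt1 arrays lay below the other 6 arrays, among which tip, control culture and stalk overlapped. Its rank was 78.2 and 76.8 in tip, 35.5 and 66.6 in Wnt1 culture, 71.0 and 76.2 in control culture, and 77.6 and 74.2 in stalk, with the Wnt1 arrays again lowest. The second probe set, 1436551_at, had signals of 125 and 102 in tip, 386 and 145 in Wnt1 culture, 76.6 and 232 in control culture, and 238 and 150.2 in stalk. There the Wnt1 arrays were not lowest, and tip lay below Wnt1 culture and below stalk without overlap. Another, 1425911_a_at, was not tested and ranged from 10.9 to 48.4 apart from 347 on Wnt1 culture replicate 1.

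Fgfr3, a receptor best known from cartilage, varied mainly between the Wnt1 arrays. The probe set 1421841_at had signals of 324 and 218 in tip, 596 and 64.7 in Wnt1 culture, 192 and 172 in control culture, and 146 and 306 in stalk. The highest and the lowest of the 8 values were both from Wnt1 culture, and every neighbouring pair of groups overlapped. On 1425796_a_at the signals were 113 and 71.6 in tip, 393 and 119 in Wnt1 culture, 451 and 228 in control culture, and 106 and 39.999 in stalk. Here the culture arrays were above the uncultured arrays in signal. In rank they were not, at percentile 52.6 and 45.8 in tip, 60.9 and 42.7 in Wnt1 culture, 66.2 and 53.0 in control culture, and 52.3 and 36.8 in stalk.

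Fgfr4, a receptor with a part in alveolar growth after birth in mice, had 5 probe sets, of which 2 were tested. The brightest, 1427846_x_at, had signals of 133 and 103 in tip, 516 and 270.5 in Wnt1 culture, 482 and 554 in control culture, and 102 and 87.8 in stalk. Culture arrays were above uncultured arrays in signal and in rank, which was 56.0 and 54.0 in tip, 71.2 and 67.5 in Wnt1 culture, 68.7 and 77.9 in control culture, and 51.5 and 52.6 in stalk. On 1418596_at the signals were 81.8 and 47.9 in tip, 126 and 117 in Wnt1 culture, 345 and 215 in control culture, and 96.3 and 41.5 in stalk, so that control culture lay above Wnt1 culture and both above the uncultured arrays. By percentile they were at 45.8 and 35.9 in tip, 28.7 and 42.3 in Wnt1 culture, 55.5 and 51.1 in control culture, and 50.3 and 37.5 in stalk, where only control culture stood above the uncultured arrays. The 3 untested Fgfr4 probe sets were dim. The values of 1427776_a_at ran from 2.63 to 52.4 apart from 472 on Wnt1 culture replicate 1, those of 1427777_x_at from 17.6 to 108, and those of 1427845_at from 5.29 to 42.7. The suffix x marks a probe set that can also bind other transcripts, and s one shared by several transcripts.

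**Figure D2:**
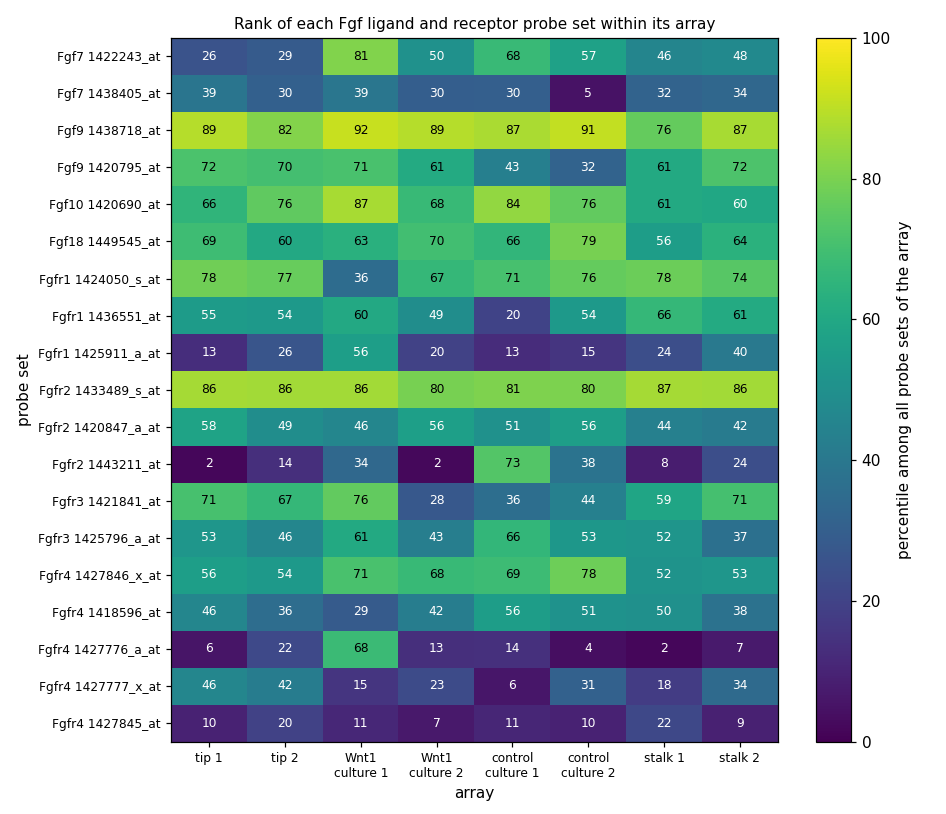
Percentile of each of the 19 probe sets among all 45037 probe sets of its array (columns: arrays by group; rows: probe sets; colour and number: percentile from 0 to 100). The Fgfr2 probe set 1433489_s_at stood at 86.1 to 86.6 on the uncultured arrays and at 79.5 to 86.0 in culture, while the Fgfr4 probe set 1427846_x_at stood higher in culture.

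In tip against stalk, Fgf10 had the largest positive difference of the tested Fgf probe sets, but no gene passed the test. Fgf10 averaged 331 ± 145 in tip and 149.6 ± 22.8 in stalk (SD, n = 2), a log2 fold change of 0.90 ± 0.56 (SE). Its adjusted p was 1 by limma, and 0.9859 to 1 over the alternatives. With signals under 298, the highest array median, raised to it, the Fgf10 difference was 0.24, and without single arrays it ran from 0.50 to 1.31. Of the 15 probe sets, 0 were called at an adjusted p under 0.05, as were 0% of all 37414 (0 of the 15 and 155 of all at an unadjusted p under 0.05). Their differences lay above 0 for 10 and below 0 for 5, with a median of 0.22 against 0.03 for all probe sets.

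Tip and stalk did not overlap for 6 of the 15 Fgf probe sets, or 40%, against 33.1% of all. The 3 that were higher in tip (18.5% of all were) were Fgf10, the Fgfr2 probe set 1420847_a_at at 0.58 ± 0.56 and the Fgfr4 probe set 1427846_x_at at 0.22 ± 0.51. The 3 lower in tip (14.6% of all were) were the Fgf7 probe set 1422243_at at -0.60 ± 0.67, the Fgfr1 probe set 1436551_at at -0.57 ± 0.62 and the Fgfr2 probe set 1433489_s_at at -0.05 ± 0.37 (log2 fold change ± SE). The second Fgf7 probe set, 1438405_at, was at 0.16 ± 0.69, so the sign for Fgf7 differed between its probe sets. All Fgf7 signals were below the array median in both groups, and with the signal floor both differences were 0. Fgf9 had differences of 0.37 ± 0.46 on 1438718_at and 0.32 ± 0.57 on 1420795_at, and the first was -0.26 without stalk replicate 1 and 1.01 without stalk replicate 2. Mesothelial markers, whose sum was higher in tip, had differences above 0 for 8 of 9 genes (median 0.50). Endothelial markers lay below 0 for 11 of 11 (median -0.49) and airway smooth muscle markers for 8 of 9 (median -0.92), and 0 of the markers in these lists were called.

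**Figure D3:**
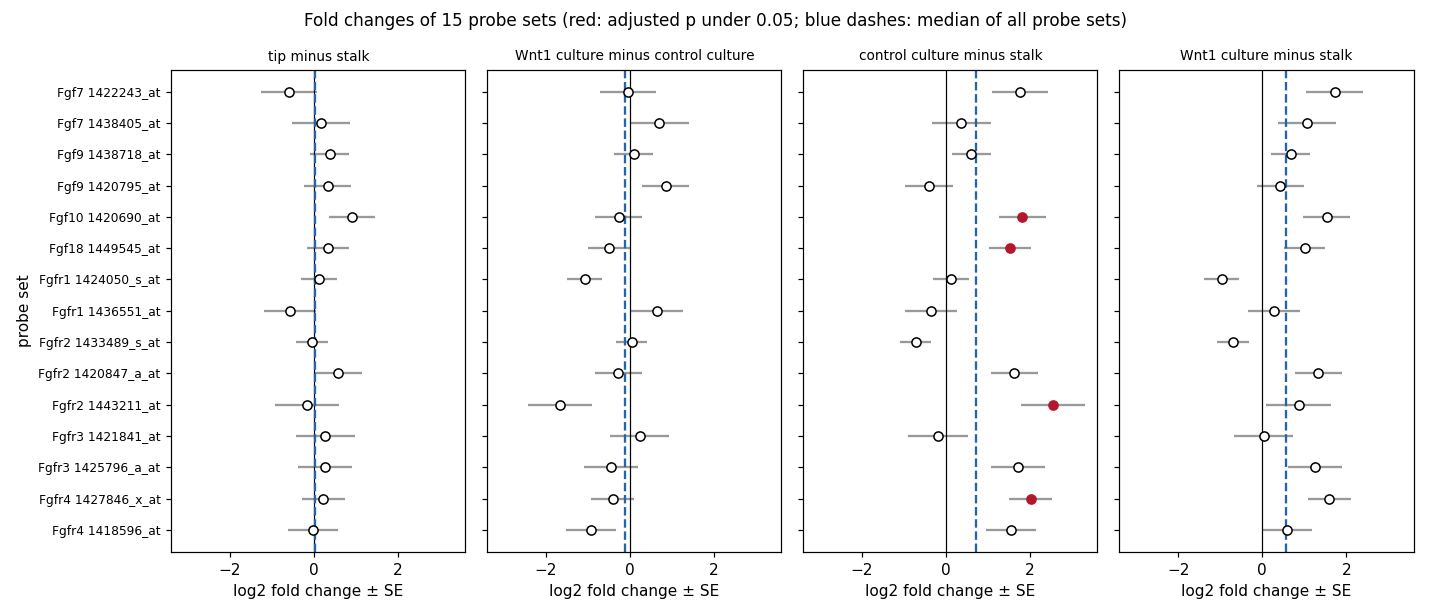
Log2 fold change (point) ± SE (bar) of the 15 tested probe sets in 4 comparisons, with filled red points for an adjusted p under 0.05 by limma and a dashed blue line at the median of all 37414 probe sets. Only control culture minus stalk holds filled points, 4 of them, where the median of all probe sets was 0.72.

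The next comparison asked whether Wnt1 moved these genes in cultured stalk. Fgfr1 on 1424050_s_at was lower with Wnt1 on both arrays, but it did not pass the test. Its signals averaged 221 ± 56.2 in Wnt1 culture and 511 ± 2.37 in control culture (SD, n = 2), and the log2 fold change was -1.08 ± 0.42 (limma, unadjusted p = 0.02186, adjusted p = 0.61, and 0.2491 to 1 over the alternatives). The difference stayed below 0 in all 14 alternatives, from -1.30 to -0.70, though the other tested Fgfr1 probe set had a difference of 0.64 ± 0.62. Of the 15 Fgf probe sets 0 were called, as were 0% of all, whereas 2 of the 15 and 2876 of the 37414 had an unadjusted p under 0.05. The second of the 2 was the Fgfr2 probe set 1443211_at at -1.67 ± 0.76 (adjusted p = 0.6425), whose groups overlapped.

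Fgf10 averaged 612 ± 482 in Wnt1 culture and 649 ± 207 in control culture, a log2 fold change of -0.27 ± 0.56 by limma (adjusted p = 0.9647). The sign of the Fgf10 difference rested on the arrays used, since it was 0.56 without Wnt1 culture replicate 2 and -1.11 without Wnt1 culture replicate 1. The groups did not overlap for 3 of the 15 probe sets, or 20%, against 25.3% of all. All 3 were lower with Wnt1, as were 16.4% of all, and 0 were higher, against 8.94% of all. They were the Fgfr1 probe set 1424050_s_at, Fgf18 at -0.50 ± 0.50 and the Fgfr4 probe set 1418596_at at -0.94 ± 0.60. The median over the 15 was -0.27, against -0.11 for all probe sets. The Fgf7 probe set 1422243_at was at -0.04 ± 0.67 and changed sign under 3 scalings, to 0.35 with quantile normalization, 0.16 with array medians centred and 0.28 with the signal floor. Wnt1 culture replicate 2 had the lower array median of the pair and an Actb ratio of 6.81, against 21.2 to 24.4 on the other culture arrays. It also had the lower signal of the pair for each tested Fgf probe set except 1424050_s_at.

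In control culture against stalk, 2 ligands and 2 receptor probe sets rose. Fgf10 averaged 649 ± 207 in control culture and 149.6 ± 22.8 in stalk, with a log2 fold change of 1.81 ± 0.56 (limma, adjusted p = 0.03441). Fgf18 averaged 522 ± 106 in control culture and 155 ± 41.7 in stalk, a rise of 1.51 ± 0.50 (adjusted p = 0.04266). The Fgfr4 probe set 1427846_x_at rose by 2.02 ± 0.51 (adjusted p = 0.01924) and the Fgfr2 probe set 1443211_at by 2.54 ± 0.76 (adjusted p = 0.03225). On 1443211_at, as on both Fgf7 probe sets and the Fgfr4 probe set 1418596_at, no uncultured array exceeded 96.4. These passed the filter through culture arrays alone, so high signals in culture were part of how they were selected. The Fgfr2 probe set 1420847_a_at exceeded that level on 1 uncultured array, tip replicate 1, and so also needed culture arrays to pass. The 4 of 15, or 26.7%, compare with 23.2% of all probe sets called in either direction and 16.8% called higher, so the share is near that of the whole array. None of the Fgf probe sets fell past the threshold, against 6.42% of all. The median over the 15 was 1.51, against 0.72 for all probe sets, and over all 19 without the filter on low signals it was 0.60, against 0.68.

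The 4 calls depended on the scaling and on single arrays. With quantile normalization Fgf10 was at 1.37, Fgf18 at 0.82, the Fgfr4 probe set 1427846_x_at at 1.22 and the Fgfr2 probe set 1443211_at at 1.71. With array medians centred they were at 0.63, 0.33, 0.83 and 1.35, and with the signal floor at 0.99, 0.71, 0.71 and 0.39. None of the 4 passed under these scalings. Over the alternatives, 14 for each of the other 3 and 13 for the Fgfr2 probe set, the adjusted p ran from 0.01374 to 0.4812 for Fgf10, from 0.02513 to 0.6812 for Fgf18, from 0.007293 to 0.3528 for the Fgfr4 and from 0.01215 to 0.4812 for the Fgfr2 probe set. Leaving out control culture replicate 1, stalk replicate 1 or stalk replicate 2 left 0 calls among the Fgf probe sets. Leaving out control culture replicate 2 gave 4, without Fgf18 (adjusted p = 0.102). All genes shifted with the scaling too, the median of all probe sets being 0.72 as deposited, 0.05 with quantile normalization and -0.46 with array medians centred, and the share of higher calls 72.4%, 43.0% and 9.81% (37.6% with the signal floor).

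A further 4 probe sets lay higher in control culture than in stalk without overlap but missed the threshold, and 1 lay lower. In all, 9 of the 15 did not overlap, or 60%, against 71.1% of all probe sets, with 8 higher (51.4% of all) and 1 lower (19.7% of all). The higher ones that did not pass were the Fgfr2 probe set 1420847_a_at at 1.62 ± 0.56, the Fgf7 probe set 1422243_at at 1.76 ± 0.67, the Fgfr3 probe set 1425796_a_at at 1.71 ± 0.64 and the Fgfr4 probe set 1418596_at at 1.54 ± 0.60 (limma, adjusted p = 0.05021, 0.06611, 0.06479 and 0.07055 in this order). Under other settings some passed, 1420847_a_at with pseudocount 16, with only the 2 groups and without an intensity trend (adjusted p = 0.04685, 0.04905 and 0.03523), the Fgf7 probe set with only the 2 groups (0.03988), the Fgfr4 probe set without an intensity trend (0.04486) and the Fgfr3 probe set without control culture replicate 2 (0.04966). The lower one was the bright Fgfr2 probe set 1433489_s_at at -0.72 ± 0.37 (adjusted p = 0.1532), at 667 ± 49.8 in control culture and 1129 ± 5.14 in stalk. Its difference stayed below 0 in all 14 alternatives, from -1.91 to -0.58, and it passed with array medians centred (adjusted p = 0.01582, against 0.01582 to 0.407 over the alternatives). Under that scaling the Fgf9 probe set 1420795_at also passed, at -1.59 (adjusted p = 0.03967, the lowest of its alternatives, which reached 1). Of all probe sets 20.2% were called with array medians centred, and 9.81% of these calls were higher.

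**Figure D4:**
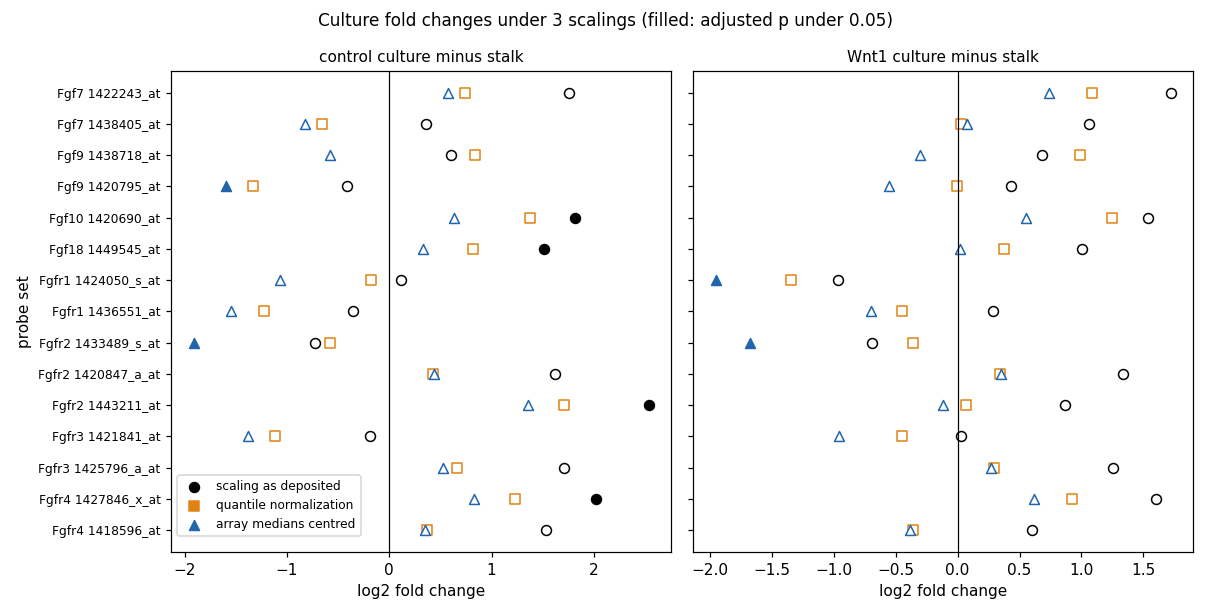
Log2 fold changes of the 15 probe sets in control culture minus stalk and in Wnt1 culture minus stalk, with the deposited scaling (circles), quantile normalization (squares) and array medians centred (triangles); filled symbols have an adjusted p under 0.05 by limma. The 4 filled circles of control culture are open under both other scalings, and the Fgfr2 probe set 1433489_s_at lies below 0 under all 3.

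Wnt1 culture against stalk used the same stalk arrays, so it is no separate check of the culture differences. Fgf10 was at 1.54 ± 0.56, Fgf18 at 1.01 ± 0.50 and the Fgf7 probe set 1422243_at at 1.72 ± 0.67 (limma, adjusted p = 0.07647, 0.1634 and 0.09123 in this order). The Fgfr4 probe set 1427846_x_at had the smallest adjusted p of the 15, 0.05561, at 1.60 ± 0.51. Below 0 were the Fgfr1 probe set 1424050_s_at at -0.96 ± 0.42 (adjusted p = 0.123) and the Fgfr2 probe set 1433489_s_at at -0.69 ± 0.37 (adjusted p = 0.1991), which both passed with array medians centred, at -1.95 and -1.68. Under that scaling 13.4% of all probe sets were called, most of them lower. With the deposited scaling these 2 did not pass. None of the 15 was called, against 11.4% of all probe sets (7.09% higher and 4.34% lower), and 5 had an unadjusted p under 0.05, as did 12954 of all. Without Wnt1 culture replicate 1, Fgf10, Fgf18, Fgf7 1422243_at and Fgfr4 1427846_x_at were at 0.71, 0.79, 0.74 and 1.18. Without Wnt1 culture replicate 2 they were at 2.37, 1.23, 2.70 and 2.01. The groups did not overlap for 10 of 15, or 66.7%, against 64.8% of all, with 8 higher (45.0% of all) and 2 lower (19.9% of all). The median of the 15 was 0.86, against 0.56 for all. The median of all was 0.03 with quantile normalization and -0.42 with array medians centred, and the share of higher calls was 62.0% as deposited, 45.7% and 8.91% under these scalings and 27.0% with the signal floor.

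The 4 culture arrays were also set against the 4 uncultured arrays, tip and stalk together. In 6 of the 15 Fgf probe sets all 4 culture arrays were above all 4 uncultured arrays, as in 30.0% of all probe sets, and in 1, the Fgfr2 probe set 1433489_s_at, they were below, as in 11.4%. By rank within the array, 2 of the 6 remained above, the Fgf7 probe set 1422243_at and the Fgfr4 probe set 1427846_x_at (13.7% of all), and the Fgfr2 probe set remained below (14.7% of all). Probe sets of 1 gene disagreed in sign for Fgfr1 and Fgfr2 in all 4 comparisons, for Fgf7, Fgf9, Fgfr3 and Fgfr4 in some. Epithelial markers moved in culture beside these genes, with Epcam, an epithelial adhesion protein, at 825 and 838 in Wnt1 culture, 969.7 and 839 in control culture, and 136 to 238 on the uncultured arrays. Cdh1, the epithelial cadherin, was at 13.9 to 248 on all 8 arrays, under the highest array median. In control culture against stalk 3 of 13 tested epithelial markers rose and 0 fell, 1 of 12 mesenchyme markers rose and 7 fell, and 0 of 11 endothelial markers rose and 7 fell. Of 9 mesothelial, 8 cartilage and 9 airway smooth muscle markers 3, 2 and 6 rose and 0 fell. Both cartilage rises, Acan and Matn1, and the smooth muscle rise Lmod1 exceeded 96.4 on no uncultured array. They passed the filter through culture arrays alone, so high signals in culture were part of how they were selected. Nkx2-1 and Gpm6a, an epithelial and a mesothelial rise, exceeded that level on 1 uncultured array each. The filter asks for 2, so they also needed culture arrays to pass. The other marker rises exceeded it on 2 or more uncultured arrays. The marker counts stand against 16.8% of all probe sets called higher and 6.42% lower, and they moved with the scaling. Given for quantile normalization, array medians centred and the signal floor in turn, epithelial rises were 1, 0 and 1, mesenchyme falls 2, 7 and 1, endothelial falls 6, 10 and 1, and smooth muscle rises 4, 4 and 3, while mesothelial and cartilage rises were 0 in each. The summed signal of the smooth muscle markers was 111395 to 179875 on the culture arrays and 1639.7 to 6584 on the uncultured arrays, and that of 12 endothelial markers was 1534 to 3726 on the culture arrays and 7094 to 13740.4 on the uncultured arrays. The part of these cell types in the Fgf signals was not tested.

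Other Fgf ligands were dim, and some rose in culture. Of 18 genes 16 were tested, and in control culture against stalk 5 rose and 0 fell, against 16.8% of all probe sets called higher and 6.42% lower, with a median of 1.33 against 0.72 for all probe sets. Among them Fgf1, a ligand of all the receptors, was at 387 and 368 in control culture and 49.0 and 29.9 in stalk (2.35 ± 0.62; limma, adjusted p = 0.02176). Fgf4, a ligand of the early embryo and limb bud, rose by 2.03 ± 0.54 and Fgf3 by 2.16 ± 0.59. None of these 3 passed with the signal floor, nor with quantile normalization or array medians centred, where the list medians were 0.33 and 0.15 and 1 other gene was called lower. In Wnt1 culture against stalk 2 of 16 rose, against 7.09% of all probe sets, Fgf22 (2.68 ± 0.62) and Fgf1 (2.27 ± 0.62). Of the genes that rose in either comparison, Fgf1, Fgf14, Fgf22 and Fgf23 exceeded 96.4 on no uncultured array, while Fgf3 and Fgf4 did so in tip. The former passed the filter through culture arrays alone, so high signals in culture were part of how they were selected. Fgf1 passed with none of quantile normalization, array medians centred and the signal floor, and Fgf22 only with array medians centred. Among the brighter of these ligands Fgf22 had the largest difference in Wnt1 against control culture, at 1.98 ± 0.62, but did not pass. None of the 18 was above the median of its own array on all 8 arrays, and none was called in tip against stalk or between Wnt1 and control culture.

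Genes that respond to Fgf signals, 11 of 12 tested, had medians of -0.02 in control culture against stalk and -0.33 in Wnt1 culture against stalk. The medians of all probe sets were 0.72 and 0.56 in these comparisons. Il17rd, a feedback inhibitor of Fgf signalling, was at 168 and 294 in control culture and 1269 and 1276 in stalk, and fell by 2.30 ± 0.42 on the log2 scale (limma, adjusted p = 0.006237). It passed as well with quantile normalization (-2.66) and with array medians centred (-3.48), and missed the threshold with the signal floor (-1.94, adjusted p = 0.07065). Dusp6, a MAP kinase phosphatase, was at 857 and 315 in Wnt1 culture and 1593 and 2144 in stalk, and fell by 1.73 ± 0.44 on the log2 scale (limma, adjusted p = 0.02937), but missed the threshold with quantile normalization (-1.37) and with the signal floor (adjusted p = 0.2318). No other gene of the list was called with the deposited scaling, where 6.42% of all probe sets were called lower in control culture and 4.34% in Wnt1 culture. With array medians centred 4 of the list were called lower in control culture and 3 in Wnt1 culture. Of all probe sets 20.2% and 13.4% were called under that scaling, 9.81% and 8.91% of these calls being higher. Il17rd was at 739 and 428 in Wnt1 culture and 168 and 294 in control culture, a difference of 1.18 ± 0.42 that did not pass (limma, adjusted p = 0.5949). In tip against stalk the largest difference was that of the transcription factor Etv5, at 0.45 ± 0.42, which did not pass.

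Receptor partners and adaptors, 13 of 14 tested, gave 2 rises and 0 falls in control culture against stalk. Of all probe sets 16.8% were called higher there and 6.42% lower. The rises were Fgfbp1, a carrier that releases Fgf from the matrix (1.94 ± 0.61), and Kl, a coreceptor for hormone-like Fgf (2.07 ± 0.66). Kl was above the median of its own array on 1 of 8 arrays and Fgfbp1 on 2 of 8, and neither passed with quantile normalization, array medians centred or the signal floor. Both exceeded 96.4 on no uncultured array and passed the filter through culture arrays alone, so high signals in culture were part of their selection. Ptpn11, a phosphatase that relays receptor signals, fell in Wnt1 culture against stalk by 1.25 ± 0.38 on the log2 scale (limma, adjusted p = 0.04806), and was at -0.97 with quantile normalization, where it missed the threshold, as it did with the signal floor (adjusted p = 0.242). Ptpn11 was the only call of the list in that comparison, against 4.34% of all probe sets called lower and 7.09% higher. Between Wnt1 and control culture the adaptor Shc1 was at 1.91 ± 0.48 and did not pass (adjusted p = 0.593). In tip against stalk Flrt2, of a membrane protein family that binds Fgf receptors, was at -0.68 ± 0.42, also not past the threshold.

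Enzymes that make and edit heparan sulfate, the cofactor of Fgf binding, had 15 of 17 genes tested, of which 3 fell and 0 rose in control culture against stalk, where 6.42% of all probe sets were called lower and 16.8% higher. With quantile normalization 2 were called lower, with array medians centred 6 and with the signal floor 1. Ext1, which lengthens the sugar chain, was at 530.3 and 464 in control culture and 1368 and 1643 in stalk (-1.51 ± 0.35; limma, adjusted p = 0.014). It passed also with quantile normalization (-1.53), array medians centred (-2.70) and the signal floor (-1.51). Glce, the epimerase, was at -1.37 ± 0.38 and Hs6st2, a sulfotransferase, at -1.74 ± 0.54, both passing with array medians centred. Glce passed also with quantile normalization but not with the signal floor (adjusted p = 0.07097), and Hs6st2 with neither. The list median was -0.38, against 0.72 for all probe sets. In the other 3 comparisons 0 of the 15 were called, where Glce was at -1.08 ± 0.38 in Wnt1 culture against stalk, the sulfotransferase Hs6st1 at 1.48 ± 0.61 in Wnt1 against control culture and the sulfatase Sulf2 at -0.43 ± 0.36 in tip against stalk. Etv1, Frs2 and Ndst1, 1 in each of the last 3 lists, had no probe set with a single gene symbol.

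The genes whose log2 signals were most like each Fgf gene over the 8 arrays were found among 10995 genes brighter than the highest array median on at least 2 arrays. They were Coro2a, Sync and Folr1 for Fgf10 (Pearson r = 0.9717, 0.9703 and 0.9692), and Ccdc157, Ctsk and Arsg for Fgf7 (r = 0.9968 to 0.9928). For Fgf9 they were Ccn1, Ap1s3 and Fam221a (0.9292 to 0.8976), and for Fgf18 Kif22, Slc17a9 and Ntng1 (0.9718 to 0.9700). For Fgfr1 they were Kiz, Yme1l1 and Tti2 (0.9751 to 0.9550), for Fgfr2 Asb4, Cpsf7 and Dnmt3a (0.9840 to 0.9822), for Fgfr3 Samd14, Nek4 and Dhx33 (0.9389 to 0.9107), and for Fgfr4 Oca2, Vav1 and Nmur2 (0.9977 to 0.9972). Arrays of all groups share these values, so that any gene that separates culture from uncultured arrays in the same way has a high r.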

How the data were processed

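RNA went through a two-cycle amplification and was labelled with biotin for the arrays, per the labels. The authors deposited linear intensities, with 1 value for each probe set on each array, from MAS5 in Affymetrix Expression Console (per the submitters' processing notes), with versions, settings and detection calls not given in the sources used here. Of 45101 probe sets, 64 controls were left out. The platform annotation gives 1 gene symbol for 34945, several for 932 and none for 9160, and 34741 matched RefSeq (GRCm38.p6), with 0 symbols changed.

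Values were tested as log2(value + 44), the pseudocount being the 25th percentile, which understates changes of dim genes. Probe sets above 96.4 on at least 2 arrays were kept (37414). A single limma 3.58.1 model (R 4.3.3, lmFit and eBayes with intensity trend) took in the 8 arrays and gave 4 contrasts, with two-sided tests, Benjamini-Hochberg adjustment over all probe sets kept and a threshold of 0.05. An exact permutation test of 2 arrays against 2 reaches 0.3333 at the lowest and was therefore not used. The script was tested on simulated data.

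The genes and lists were chosen with earlier results of these data known. All 19 probe sets are named. From each pathway list up to 3 genes past the threshold by smallest p are named, or the largest change among genes with a group mean above 298, the highest array median. A list gene is represented by its brightest probe set, and likeness names the 3 highest correlations. Alternatives were pseudocounts 16 and 100, no filter, quantile normalization, centred array medians, 1 probe set per gene, a floor at the highest array median, only the 2 groups compared, no intensity trend, the replicate number as a block, and each array left out.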

Additional observations from a re-analysis of the deposited data

How the results depend on the processing

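Low signal limits these values, since several probe sets lay under the array median in uncultured tissue. Of the 15 tested probe sets, the number called in control culture against stalk was 4. It was 0 with quantile normalization, 2 (both lower) with array medians centred, 0 with the signal floor and 8 with the replicate block (the 4 and Fgf7 1422243_at, Fgfr2 1420847_a_at, Fgfr3 1425796_a_at and Fgfr4 1418596_at), and 0 to 4 with 1 array left out. In Wnt1 culture against stalk it was 0, but 1 with pseudocount 16, 2 (both lower) with array medians centred, 1 with 1 probe set per gene and 3 with the replicate block, and 0 to 4 with 1 array left out. In the other comparisons it was 0 throughout. Called among all 37414 probe sets were 8687 in control culture against stalk, 2295 with quantile normalization, 675 with the signal floor, 4251 of 16115 with 1 probe set per gene and 214 to 11786 with 1 array left out. In Wnt1 culture against stalk there were 4276 and, in the same order, 892, 115, 2615 of 16115 and 179 to 12699, with 2614 without an intensity trend and 8515 with the replicate block. In Wnt1 against control culture there were 0, and 1 with pseudocount 16 or the replicate block, 46 with the signal floor and 0 to 58 with 1 array left out. In tip against stalk there were 0, and 3 with the signal floor. With array medians centred there were 7566 in control culture against stalk and 4996 in Wnt1 culture against stalk, of which 9.81% and 8.91% were higher. Where leaving out an array left 1 in a group, it was assumed to vary like the others.

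Labels give replicate numbers but name no shared litter or day. Deviations of same-numbered arrays correlated at -0.0148 to 0.2738 over the pairs of groups, and 2 numbers do not show a pairing. The block was therefore not part of the values reported.

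The log2 fold changes that changed sign under another setting had not passed the test. In tip against stalk these were Fgfr2 1433489_s_at (0.010 with quantile normalization). In Wnt1 against control culture these were Fgf7 1422243_at (0.35 with quantile normalization, 0.16 with array medians centred and 0.28 with the signal floor). In control culture against stalk these were Fgf7 1438405_at (-0.66 with quantile normalization and -0.82 with array medians centred), Fgf9 1438718_at (-0.58 with array medians centred) and Fgfr1 1424050_s_at (-0.17 with quantile normalization and -1.07 with array medians centred). In Wnt1 culture against stalk these were Fgf9 1438718_at (-0.30 with array medians centred), Fgf9 1420795_at (-0.0053 with quantile normalization and -0.55 with array medians centred), Fgfr1 1436551_at (-0.45 with quantile normalization and -0.70 with array medians centred), Fgfr2 1443211_at (-0.12 with array medians centred), Fgfr3 1421841_at (-0.041 with pseudocount 16, -0.45 with quantile normalization and -0.95 with array medians centred) and Fgfr4 1418596_at (-0.36 with quantile normalization and -0.39 with array medians centred).

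With 1 array left out, the sign of further differences turned, none of them past the threshold. For tip against stalk they ran from -0.021 to 0.34 for Fgf7 1438405_at, -0.26 to 1.01 for Fgf9 1438718_at, -0.12 to 0.77 for Fgf9 1420795_at, -0.070 to 0.74 for Fgf18 1449545_at, -0.060 to 0.29 for Fgfr1 1424050_s_at, -0.17 to 0.71 for Fgfr3 1421841_at, -0.15 to 0.68 for Fgfr3 1425796_a_at and -0.38 to 0.33 for Fgfr4 1418596_at. For Wnt1 against control culture they ran from -1.02 to 0.94 for Fgf7 1422243_at, -0.13 to 1.52 for Fgf7 1438405_at, -0.19 to 0.35 for Fgf9 1438718_at, -1.11 to 0.56 for Fgf10 1420690_at, -0.35 to 0.42 for Fgfr2 1433489_s_at, -1.05 to 1.502 for Fgfr3 1421841_at and -1.17 to 0.25 for Fgfr3 1425796_a_at. For control culture against stalk they ran from -0.46 to 1.19 for Fgf7 1438405_at, -0.033 to 1.24 for Fgf9 1438718_at, -0.85 to 0.035 for Fgf9 1420795_at, -0.058 to 0.29 for Fgfr1 1424050_s_at, -0.96 to 0.24 for Fgfr1 1436551_at and -0.63 to 0.25 for Fgfr3 1421841_at. For Wnt1 culture against stalk they ran from -0.14 to 1.001 for Fgf9 1420795_at, -0.31 to 0.88 for Fgfr1 1436551_at, -0.16 to 1.89 for Fgfr2 1443211_at and -1.25 to 1.31 for Fgfr3 1421841_at. The cause of these changes was not tested.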
